A study of Homo sapiens with 2 samples.

Results

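The Hippo effector genes examined here were the transcriptional coactivators YAP1 and WWTR1 (the gene of the TAZ protein), the transcription factors TEAD1, TEAD2, TEAD3 and TEAD4, the kinases LATS1 and LATS2, and the angiomotin-like genes AMOTL1 and AMOTL2. These 10 genes were taken by symbol from the 54261 genes of the count table, by a rule that uses no measured value although earlier results of these data were known when they were chosen, and the mean level of 9 of them reached 1 CPM (the count scaled to a common library size), the minimum set for keeping a gene. The cells were RKO, a human colorectal cancer cell line, transfected either with the control siRNA siNC (si-NC) or with an siRNA against the splicing factor SRSF2 (si-SRSF2, labelled siSRSF2). RNA-seq was run on 1 library of each group, so no difference below had a replicate check, no test was made, and the intervals given cover counting error only. Each group stands for 1 library of 1 cell line, and in bulk RNA fewer cells of a kind cannot be told apart from less RNA per cell. The log2 ratios compare si-SRSF2 with si-NC after library scaling and addition of 0.5 CPM to each level. Their 95% intervals are Clopper-Pearson intervals of the scaled counts without this addition, so at low counts a ratio can lie off the centre of its interval.

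Hippo signalling is a kinase cascade that restrains tissue growth. The MST kinases, genes STK4 and STK3, act with the scaffold SAV1 and the MOB1 adaptors to activate LATS1 and LATS2, which phosphorylate YAP and TAZ and thereby keep them in the cytoplasm and mark them for degradation. When the cascade is off, YAP and TAZ enter the nucleus and bind TEAD factors, which carry the DNA-binding domain that YAP and TAZ lack. Angiomotin-family proteins bind YAP at cell junctions and actin filaments, and AMOTL2 and LATS2 are themselves well-known YAP and TAZ target genes. YAP and TAZ are required for intestinal regeneration and are studied as growth promoters in colorectal tumours. Much of this control acts on protein phosphorylation and location, which RNA-seq does not measure, and counts per gene do not separate splice forms.

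The counted reads came to 19931360 with si-NC and 14512802 with si-SRSF2, and a count of 0 allows a level of up to 3 counts, or 0.151 and 0.207 CPM. The targeted gene SRSF2 had 1964 counts with si-NC and 713 with si-SRSF2, a log2 ratio of -0.997 (95% interval -1.13 to -0.88). Of 7 colon epithelial markers, EPCAM, KRT8, KRT18 and CDX2 were present at a mean of 9.55 to 35.0 CPM, while CDH1 had 10 and 6 counts and KRT20 and VIL1 had 0 to 1. Of 5 mesenchymal markers VIM had 28.0 and 26.4 CPM and the others 0 to 13 counts, and the 5 immune and endothelial markers had 0 to 2 counts each. KRT8 was the 1 marker past 1.5-fold, at 27.4 CPM with si-NC and 42.6 with si-SRSF2, and its part in the values of the Hippo genes was not tested.

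TEAD factors recognise the bases GGAATG, or CATTCC read on the other strand. RefSeq promoter windows on GRCh38.p14, from 250 bases before to 50 after a transcription start, were used for 8 of the 10 genes (not TEAD1 and TEAD4), in 12 windows. The motif was in 3 of these 12 windows, those of AMOTL2, YAP1 and LATS2, and in 14.0% of all 35116 windows of this length. The window of CCN2, a classical YAP and TAZ target that encodes a matricellular growth factor, held 3 copies. The stretches below show where the motif stands in the members that have it and in CCN2. Capitals mark the motif, and each stretch is written 5′ to 3′ along the gene.
AMOTL2: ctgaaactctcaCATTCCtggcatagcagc
YAP1: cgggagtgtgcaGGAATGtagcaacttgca
LATS2: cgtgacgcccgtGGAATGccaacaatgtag
CCN2: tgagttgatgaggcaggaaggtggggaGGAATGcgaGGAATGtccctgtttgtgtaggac
In AMOTL2 (chr3:134374499-134374528, minus strand) the motif is on the strand opposite to transcription and begins at position -69 from the downstream of 2 AMOTL2 starts, the window of the upstream start holding none, in a stretch that 2 annotated AMOTL2 exons overlap. In YAP1 (chr11:102110273-102110302, plus strand) it begins at -162, where an exon of an unnamed long noncoding RNA gene overlaps the stretch. In LATS2 (chr13:21061560-21061589, minus strand) it begins at position 10 of the transcript, in an exon. In CCN2 (chr6:131951444-131951503, minus strand) the copies shown begin at -104 and -95, the other begins at -169, and no annotated exon overlaps the stretch. These matches are descriptions of letters and were not examined for binding.

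The coactivators and TEAD1 were the most abundant members in RKO cells, and AMOTL1 was close to the limit of detection. Levels were compared between genes as CPM per kb of the canonical transcript in GENCODE release 44. In si-NC, YAP1 stood first at 38.0 CPM per kb, followed by TEAD1 at 33.8 and WWTR1 at 31.1. Without division by length TEAD1 stood above YAP1, at 318 against 205 CPM in si-NC. TEAD4 at 16.3, TEAD3 at 12.6, AMOTL2 at 10.0, TEAD2 at 9.46, LATS2 at 8.85 and LATS1 at 8.25 came next, and AMOTL1 was last at 0.039. The 95% Poisson intervals of AMOTL2 and TEAD2, of TEAD2 and LATS2, and of LATS2 and LATS1 overlapped, so the order of these neighbours was not separated by counting error. The first 5 genes kept their places in si-SRSF2, at 41.9 for YAP1, 33.1 for TEAD1, 25.3 for WWTR1, 17.5 for TEAD4 and 13.01 for TEAD3. AMOTL2 went from 6th place to 9th, at 7.44 CPM per kb, although its interval overlapped that of LATS1 at 7.88.

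**Figure D1:**
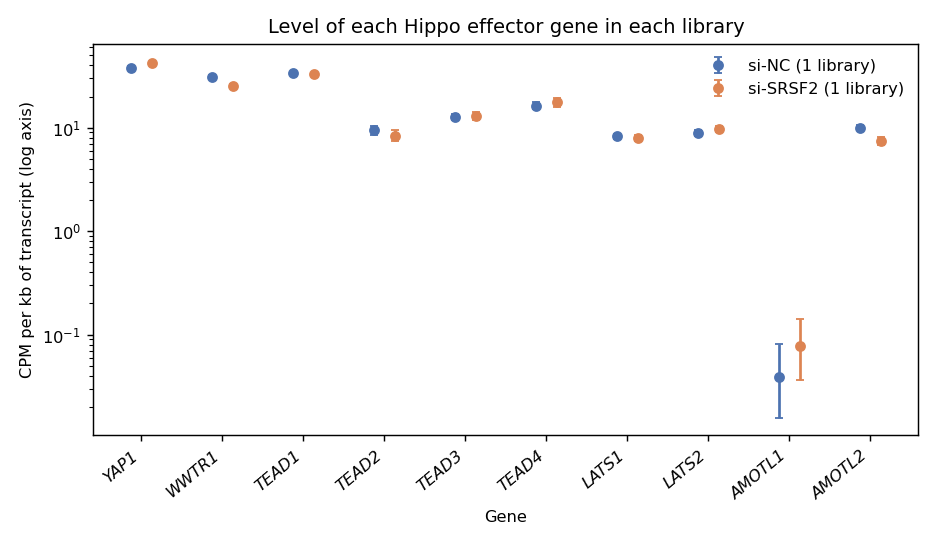
Level of each gene in CPM per kb of canonical transcript, on a log axis, with 1 point per library (si-NC and si-SRSF2) and bars for 95% Poisson intervals of the count. YAP1, TEAD1 and WWTR1 lie between 25.3 and 41.9 CPM per kb in both libraries, and AMOTL1 lies under 0.1 in both.

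None of the 9 genes kept by the filter was 1.5-fold higher or lower in si-SRSF2. Among all 12620 genes kept, 4.18% were at least 1.5-fold higher and 3.52% at least 1.5-fold lower. The numbers behind these shares changed with the pseudocount and the filter, as given in the closing section. The members' log2 ratios ran from -0.42 to 0.14 with a median of -0.030, beside a median of -0.025 over all genes kept, and 4 were higher and 5 lower. The 95% interval lay above a ratio of 1 for 2 of the 9, YAP1 and LATS2, and below it for 2, WWTR1 and AMOTL2. Among all genes kept, 21.0% lay above and 26.7% below, so these counts were near the background. Intervals narrow as counts grow, however, and this background was not matched to the members for level.

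**Figure D2:**
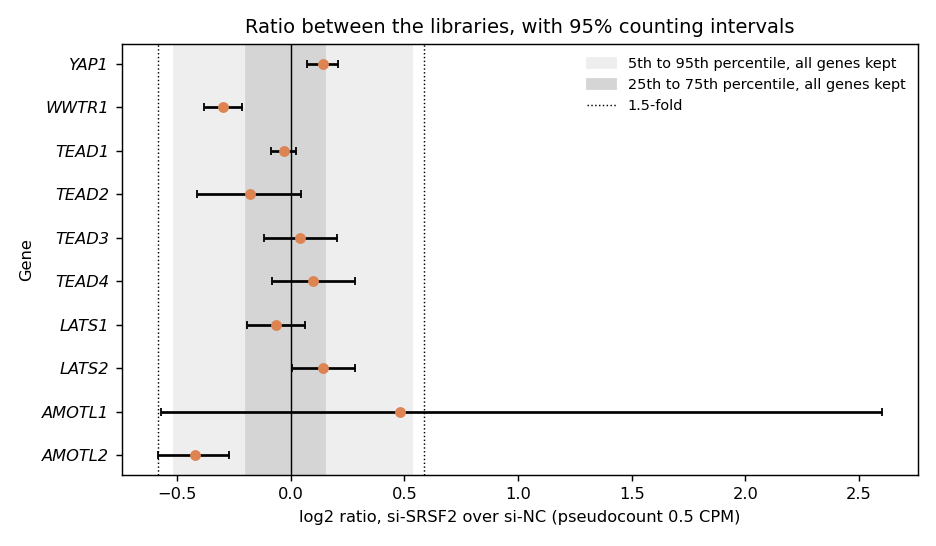
Log2 ratio for each gene, si-SRSF2 over si-NC, with a pseudocount of 0.5 CPM and bars for 95% Clopper-Pearson intervals of counting error; the shaded bands run from the 5th to the 95th and from the 25th to the 75th percentile of all 12620 genes kept, and dotted lines mark 1.5-fold. Of the genes kept, AMOTL2 at -0.42 and WWTR1 at -0.30 are the lowest, YAP1 and LATS2 at 0.14 are the highest, and AMOTL1 has the widest interval.

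The coactivators differed in direction. YAP1 (ENSG00000137693.14, chr11:102110447-102233424, plus strand) had 4088 counts with si-NC and 3281 with si-SRSF2, or 205 and 226 CPM. WWTR1 (ENSG00000018408.15, chr3:149517235-149736714, minus strand) had 3119 and 1848 counts, or 156 and 127 CPM. The YAP1 level was thus slightly higher and the WWTR1 level lower in the si-SRSF2 library. The log2 ratio was 0.14 for YAP1 (95% interval 0.074 to 0.21) and -0.30 for WWTR1 (-0.38 to -0.21). Of the genes kept, 73.7% had a lower ratio than YAP1 and 15.1% a lower one than WWTR1. An unnamed long noncoding RNA gene lies opposite 11.6% of the YAP1 transcript, and WWTR1-AS1, with 7 and 0 counts, lies opposite 11.4% of the WWTR1 transcript. Together the coactivators had 362 CPM with si-NC and 353 with si-SRSF2, a log2 ratio of -0.033 (-0.085 to 0.019), so their sum differed by less than the counting error while their proportions differed by more.

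A share within a library does not depend on how the libraries are scaled to each other. YAP1 made up 55.0% of the YAP1 and WWTR1 counts per kb in si-NC (95% Clopper-Pearson interval 53.8% to 56.2%) and 62.3% in si-SRSF2 (61.0% to 63.7%). The odds ratio of the counts was 1.35 (95% exact interval 1.26 to 1.46). LATS2 made up 51.8% of the LATS counts per kb in si-NC (49.6% to 53.9%) and 55.4% in si-SRSF2 (52.9% to 57.8%), with an odds ratio of 1.16 (1.01 to 1.32). The shift toward YAP1 was therefore larger than counting error, and that toward LATS2 only just so. The log2 ratios of all genes kept ran from -0.51 at the 5th percentile to 0.53 at the 95th. How often other pairs of genes shift as much was not examined.

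**Figure D3:**
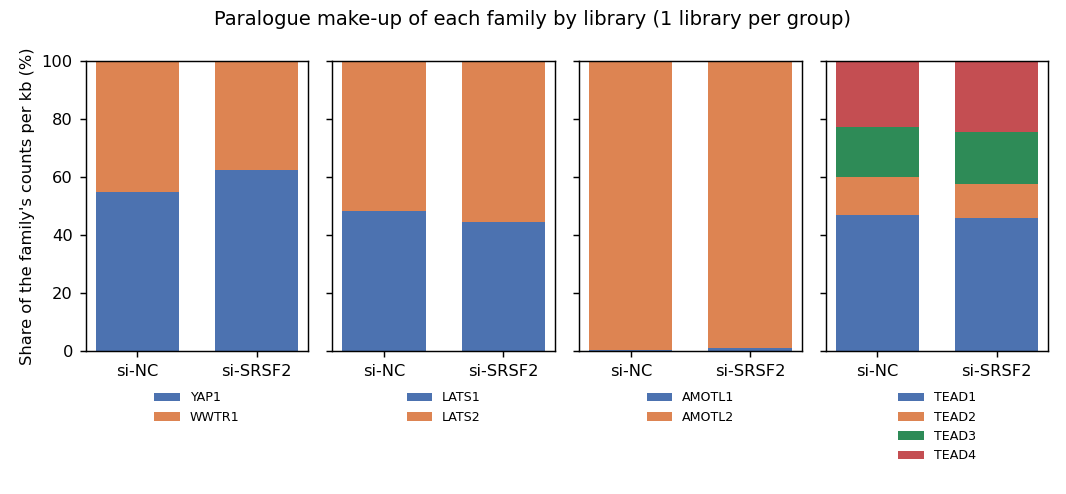
Share of each paralogue in its family's counts per kb, in percent, as stacked bars for the single si-NC and si-SRSF2 libraries. YAP1 takes 55.0% of its pair with si-NC and 62.3% with si-SRSF2, whereas each TEAD share moves by less than 2 percentage points.

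The TEAD genes encode the DNA-binding partners of YAP and TAZ, and none of them differed between the libraries by more than counting error. TEAD1 (ENSG00000187079.20, chr11:12674421-12944737, plus strand) had 6345 and 4524 counts, or 318 CPM with si-NC and 312 with si-SRSF2. TEAD2 (ENSG00000074219.14, chr19:49340595-49362457, minus strand) had 410 and 263 counts, or 20.6 and 18.1 CPM. TEAD3 (ENSG00000007866.22, chr6:35473597-35497079, minus strand) had 752 and 564 counts, or 37.7 and 38.9 CPM. TEAD1 and TEAD2 were thus lower and TEAD3 higher in the si-SRSF2 library, each by less than its counting error. TEAD4 (ENSG00000197905.10, chr12:2959330-3040676, plus strand) had 557 and 435 counts, or 27.9 and 29.97 CPM. The log2 ratios were -0.030 for TEAD1, -0.18 for TEAD2, 0.042 for TEAD3 and 0.099 for TEAD4, and the 95% interval of each included 0. The summed TEAD level had a log2 ratio of -0.021 (-0.070 to 0.027).

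The narrowest of these intervals, that of TEAD1, ran from -0.086 to 0.025, and the widest, that of TEAD2, from -0.41 to 0.044. By counting error alone the TEAD2 counts allowed any ratio inside its range, whereas the deeper count of TEAD1 bounded its ratio more closely. By counts per kb TEAD1 made up 46.8% of the family with si-NC and 46.0% with si-SRSF2, TEAD4 22.6% and 24.4%, TEAD3 17.5% and 18.1%, and TEAD2 13.1% and 11.6%. Without division by length TEAD1 made up 78.7% and 78.2%, TEAD3 9.33% and 9.75%, TEAD4 6.91% and 7.52%, and TEAD2 5.08% and 4.55%, so TEAD3 then stood above TEAD4. The odds ratios of these shares lay between 0.89 and 1.10, and the 95% interval of each included 1. Up to 1.55% of the 31-base words of a TEAD transcript occurred in another TEAD gene, and none of those of TEAD1 did. Exons of CD37 on the opposite strand cover 14.7% of the TEAD2 transcript, and CD37 had 1 and 0 counts. Whether counting used strand is not known, and the part of such overlaps in the values was not tested.

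The LATS kinases, which phosphorylate YAP and TAZ, lay on either side of the control level. LATS1 (ENSG00000131023.13, chr6:149658153-149718105, minus strand) had 1210 counts with si-NC and 842 with si-SRSF2, or 60.7 and 58.0 CPM, with a log2 ratio of -0.065 (-0.19 to 0.062). LATS2 (ENSG00000150457.9, chr13:20973036-21061586, minus strand) had 978 and 787 counts, or 49.1 and 54.2 CPM, with a log2 ratio of 0.14 (0.0068 to 0.28). The LATS1 interval included 0 and that of LATS2 excluded it narrowly. Their sum was 110 CPM with si-NC and 112 with si-SRSF2, a log2 ratio of 0.032 (-0.062 to 0.13).

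AMOTL2 had the lowest ratio of all members. AMOTL2 (ENSG00000114019.15, chr3:134355347-134375479, minus strand), whose product tethers YAP at junctions, had 971 counts with si-NC and 526 with si-SRSF2, or 48.7 and 36.2 CPM. The si-SRSF2 library thus held 74.4% of the control level, a log2 ratio of -0.42 (-0.58 to -0.27), and 7.81% of the genes kept had a lower one. A ribosomal protein pseudogene, RPL39P5, lies on the same strand over 3.84% of the AMOTL2 transcript and had 1 and 2 counts. Its paralogue AMOTL1 (ENSG00000166025.18, chr11:94706431-94876748, plus strand) had 7 counts with si-NC and 10 with si-SRSF2, or 0.351 and 0.689 CPM, and did not pass the filter. Its log2 ratio of 0.48 had an interval of -0.57 to 2.60, so no difference was detectable at this depth, and it was 0.19 or 0.81 with a pseudocount of 2 or 0.1 CPM. AMOTL2 supplied 99.6% of the counts per kb of the pair with si-NC and 99.0% with si-SRSF2, with an odds ratio of 0.38 (0.12 to 1.11).

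The other genes of the pathway were described in 3 lists. Of 22 YAP and TAZ target genes, 16 were kept, with 9 higher and 7 lower in si-SRSF2 and a median log2 ratio of 0.064, beside 46.2% of all genes kept that were higher. At least 1.5-fold higher were 2 of the 16, F3 and NT5E, and none was 1.5-fold lower. This 1.5-fold level was reached upward by 4.18% of all genes kept. The 95% interval lay above a ratio of 1 for 7 of the 16 and below it for 5, beside 21.0% and 26.7% of all genes kept. Whether an interval excludes 1 depends on depth, and these shares were not matched to the list for level. AMOTL2 and LATS2 belong to this list, and without them the median was again 0.064 over 14 genes. Of 3 targets often used as readouts, CCN1 was higher, CCN2 was lower and ANKRD1 was too low to compare. CCN1, which encodes a matricellular growth factor, had 242 CPM with si-NC and 290 with si-SRSF2, a log2 ratio of 0.26 (0.20 to 0.32). CCN2, its close relative, had 22.2 and 18.9 CPM, a log2 ratio of -0.22 (-0.45 to -0.010). ANKRD1, a nuclear ankyrin-repeat protein gene, had 4 and 5 counts.

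F3, the gene of tissue factor, had 977 counts with si-NC and 1568 with si-SRSF2, or 49.0 and 108 CPM, a log2 ratio of 1.13 (1.02 to 1.26). It was the only listed target past 2-fold, which 0.848% of all genes kept exceeded upward and 0.499% downward. NT5E, which encodes the ectonucleotidase CD73, had 8.28 and 13.1 CPM, a log2 ratio of 0.63 (0.35 to 0.97), and MYOF, a membrane-repair protein gene, had 79.6 and 102 CPM (0.36, with an interval of 0.26 to 0.46). On the lower side was AXL, a receptor tyrosine kinase and the most abundant target by CPM, at 786 CPM with si-NC and 637 with si-SRSF2, a log2 ratio of -0.30 (-0.34 to -0.27). With AXL and CCN1, the 5 most abundant targets by CPM were ASAP1, CRIM1 and DOCK5, whose log2 ratios were -0.078, 0.039 and 0.090. Of the 22, FOXF2, TGFB2 and RBMS3 had no more than 2 counts in either library.

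Of 29 upstream genes of the cascade, 25 were kept, with 8 higher and 17 lower in si-SRSF2 and a median log2 ratio of -0.028. Lower genes made up 68.0% of these and 53.8% of all genes kept. The 95% interval lay below a ratio of 1 for 9 of the 25 and above it for 3, and WTIP, with 44 and 18 counts and named after its values were seen, was the 1 gene at least 1.5-fold lower. Among all genes kept, not matched to the list for level, these shares were 26.7% below, 21.0% above and 3.52% at least 1.5-fold lower. The core kinase STK3 had 56.5 CPM with si-NC and 40.7 with si-SRSF2, a log2 ratio of -0.47 (-0.62 to -0.33). SAV1, the scaffold of this kinase, had 80.8 and 67.4 CPM (-0.26, with an interval of -0.38 to -0.15). The other core genes, named after their values were seen, had log2 ratios of -0.19 for the MST kinase STK4 (-0.25 to -0.14), -0.10 for MOB1A (-0.16 to -0.048) and -0.024 for MOB1B (-0.13 to 0.086). MAP4K1, a kinase of the same list, had no counts in either library.

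AJUBA, a LIM protein that holds LATS at junctions, had 31.4 CPM with si-NC and 21.6 with si-SRSF2, a log2 ratio of -0.53 (-0.74 to -0.34), and its relatives LIMD1 and WTIP had -0.27 (-0.37 to -0.17) and -0.64 (-1.71 to -0.011). AMOT, the founding member of the angiomotin family, had 250 and 132 counts, or 12.5 and 9.09 CPM, a log2 ratio of -0.44 (-0.78 to -0.15). In the other direction, MAP4K4, a kinase that can phosphorylate LATS in parallel with MST, had 169 CPM with si-NC and 228 with si-SRSF2, a log2 ratio of 0.43 (0.36 to 0.50).

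**Figure D4:**
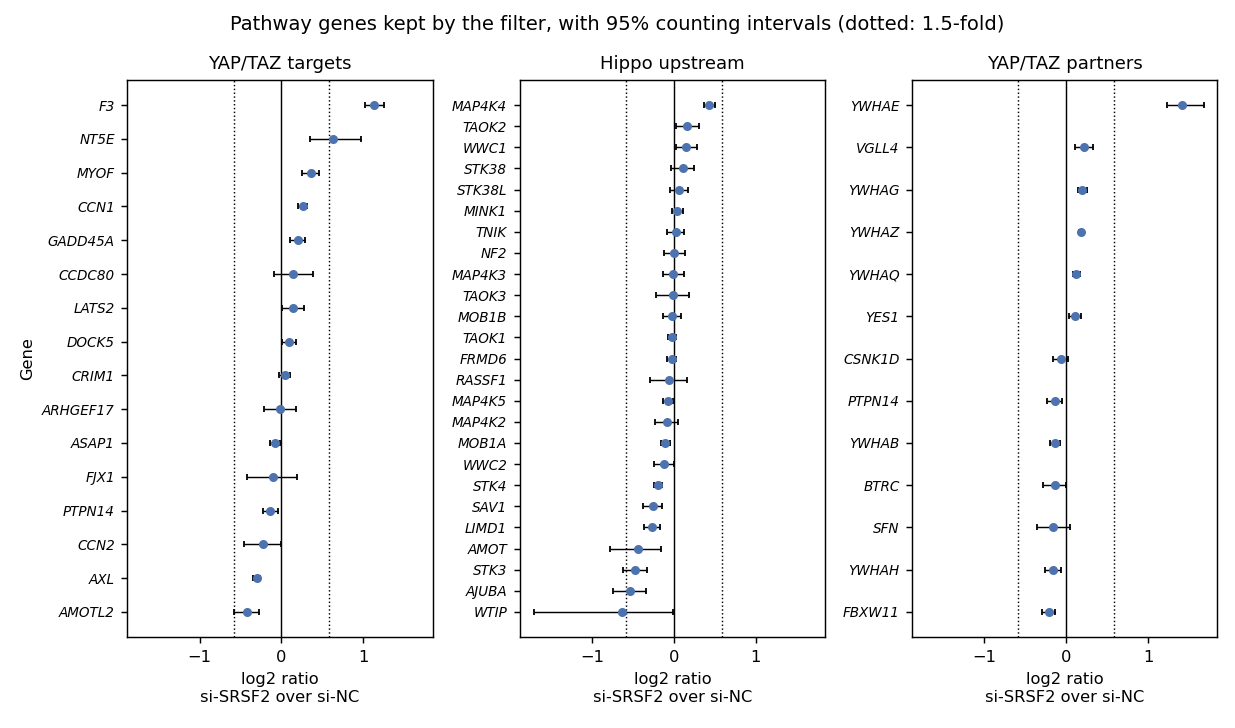
Log2 ratio, si-SRSF2 over si-NC, for every gene kept in the target, upstream and partner lists, with 95% Clopper-Pearson intervals of counting error and dotted lines at 1.5-fold. F3, NT5E and YWHAE stand beyond 1.5-fold on the higher side and WTIP on the lower, and the remaining genes lie between the dotted lines.

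Of 17 genes whose products bind, modify or degrade YAP and TAZ or compete for TEAD, 13 were kept, with 6 higher and 7 lower in si-SRSF2 and a median log2 ratio of -0.065. The 95% interval lay above a ratio of 1 for 6 of them and below it for 4, beside 21.0% and 26.7% of all genes kept, again not matched for level. VGLL4, which competes with YAP for TEAD binding, had 72.4 CPM with si-NC and 84.3 with si-SRSF2, a log2 ratio of 0.22 (0.11 to 0.33), whereas VGLL1, VGLL2 and VGLL3 had at most 1 count in each library. YWHAG, one of the YWHA adaptors that hold phosphorylated YAP in the cytoplasm, had 269 and 309 CPM, a log2 ratio of 0.20 (0.14 to 0.26). The YWHA genes lay on both sides of the control, and 4 of them, named after their values were seen, had log2 ratios of 0.19 for YWHAZ (0.16 to 0.21), 0.13 for YWHAQ (0.081 to 0.17), -0.14 for YWHAB (-0.20 to -0.076) and -0.16 for YWHAH (-0.25 to -0.059). The adaptor YWHAE had 248 and 494 counts, or 12.4 and 34.0 CPM, a log2 ratio of 1.42 (1.23 to 1.68). This value is uncertain: 93.2% of the 31-base words of the YWHAE transcript also occur on alternate-locus scaffolds of hg38, and their part in the result was not tested. For the 10 members this share was at most 2.78%, that of WWTR1.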

How the data were processed

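The deposited table held raw counts per gene symbol for 1 si-NC and 1 si-SRSF2 library. Per the labels and the methods of the study, the authors trimmed the read pairs of strand-specific libraries, used HISAT2 2.0.4 with GRCh38 and counted with HTSeq; the strand mode of counting is not given in the sources used here. The table lists CCN1 and CCN2 under the older symbols CYR61 and CTGF.

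Library sizes were scaled over all genes with edgeR 4.0.16 (TMM) in R 4.3.3. Log2 ratios used a pseudocount of 0.5 CPM, and a gene was kept if its mean reached 1 CPM, which left 12620. Intervals at 95% were Clopper-Pearson for ratios and shares, Poisson for levels and exact conditional for odds ratios (SciPy 1.17.1). A family share per kb used the transcript lengths of GENCODE release 44. The calculations were tested on simulated data. Named genes were the members, SRSF2, the 8 highest and 8 lowest ratios among listed genes with at least 5 CPM, the 5 most abundant targets, CCN1, CCN2 and ANKRD1, any listed gene with at most 3 counts in both libraries, and genes marked as chosen after their values were seen. The members and lists were chosen with earlier results of these data known. WTIP, RPL39P5 and CD37 were also named after their values were seen.

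The alternatives were other scalings (DESeq2 1.42.0, upper quartile, or totals alone), a pseudocount of 0.1 or 2 CPM, a filter at 5 CPM or none, totals without mitochondrial genes and without the 20 top genes, and shares without division by length.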

Additional observations from a re-analysis of the deposited data

How the results depend on the processing

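No paired analysis was possible because there was a single library on each side, and for the same reason no replicate could be left out. All log2 ratios of the 10 members and of SRSF2 kept their sign and stayed within their 95% intervals under the 6 alternatives of scaling, pseudocount and library total, from 0.14 to 0.16 for YAP1, -0.30 to -0.27 for WWTR1, -0.43 to -0.40 for AMOTL2 and -1.003 to -0.97 for SRSF2. The AMOTL1 ratio moved most, from 0.19 with a pseudocount of 2 CPM to 0.81 with 0.1 CPM, which is past 1.5-fold; the filters on low levels cannot change the ratio of a single gene. No alternative put any of the other 9 members past 1.5-fold. The median of the members ran from -0.031 to 0.0057 and that of the partner list from -0.065 to 0.022, so neither had a settled sign. Among all genes kept, the numbers at least 1.5-fold higher and lower were 527 and 444, but 254 and 220 with a pseudocount of 2 CPM, 1262 and 837 without a filter on low counts and 202 and 237 when the filter was set at 5 CPM.

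Without division by length, the shares in si-NC and si-SRSF2 were 56.7% and 64.0% for YAP1, 44.7% and 48.3% for LATS2, 78.7% and 78.2% for TEAD1, 5.08% and 4.55% for TEAD2, 9.33% and 9.75% for TEAD3, and 6.91% and 7.52% for TEAD4. Division by length changes the level of a share by construction. Depth limits AMOTL1 most, with 7 and 10 counts.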
